A study of Mus musculus with 6 samples.

Results

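RNA from sorted Ret mechanoreceptors of the mouse dorsal root ganglion at E14.5 was sequenced in 3 of the 6 libraries of the series (replicates 2, 8 and 9), and the account below describes what those 3 libraries contained. The libraries were taken by their column headings in the deposited count table. For each gene the transcript row with the highest count summed over the 6 libraries was used. The embryos carried the Ret-CreERT2 and Rosa26-Tdtomato alleles on a mixed strain. Their mothers had received 4-hydroxytamoxifen by oral gavage, 1.5 and 2 mg by the labels, with no dose given per library. Cells of the ganglia were freed with trypsin-EDTA and those that carried the red reporter were taken by fluorescence-activated sorting. Recombination in this line is driven from Ret, so any Ret-expressing cell of the ganglion present when the drug acted could carry the label. The 3 midline libraries (replicates 2, 3 and 5) serve below only as a point of reference. They are cells of the dorsal column midline that descend from the roof plate, cut by laser capture from frozen, hematoxylin-stained spinal cords of wild-type embryos of the same age and of mixed strain, with no tamoxifen stated for them. Cell type thus coincided with tissue, isolation, genotype and drug, which cannot be told apart. The labels did not say whether replicates came from separate embryos or litters, so a p-value here reflects no more than the variation among these libraries, part of which may be technical.

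Rapidly adapting mechanoreceptors are large sensory neurons that report touch and vibration from skin and its end organs. Ret is a receptor tyrosine kinase that responds to ligands of the GDNF family through co-receptors of the Gfra family, of which Gfra2 is the one known for neurturin. The early Ret neurons of the ganglion express Ret and Gfra2 before the later, non-peptidergic nociceptors do, and the transcription factors Maf and Mafa are known in them. Nefm and Prph encode intermediate filament proteins of neurons, and Sncg encodes gamma-synuclein, which is abundant in peripheral neurons.

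The regions before the start sites of 2 of these marker genes, Prph and Sncg, are shown because only these 2 had a promoter sequence at hand. Both genes stood among the 15 most abundant of the libraries per kilobase of transcript. The sequences are RefSeq promoters of build GRCm38.p6, from 250 bases before the start to 50 bases after it. Capitals mark the words TATAAA and GGGCGG, searched on both strands, where the second can read CCGCCC. The Prph window lies at chr15:99054924-99055223 on the plus strand and the Sncg window at chr14:34374620-34374919 on the minus strand.
Prph: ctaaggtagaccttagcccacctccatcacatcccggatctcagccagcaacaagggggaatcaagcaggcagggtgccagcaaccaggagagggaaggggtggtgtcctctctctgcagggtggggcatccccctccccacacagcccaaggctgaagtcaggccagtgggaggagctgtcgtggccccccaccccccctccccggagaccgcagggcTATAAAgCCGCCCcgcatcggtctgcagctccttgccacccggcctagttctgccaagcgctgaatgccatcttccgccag
Sncg: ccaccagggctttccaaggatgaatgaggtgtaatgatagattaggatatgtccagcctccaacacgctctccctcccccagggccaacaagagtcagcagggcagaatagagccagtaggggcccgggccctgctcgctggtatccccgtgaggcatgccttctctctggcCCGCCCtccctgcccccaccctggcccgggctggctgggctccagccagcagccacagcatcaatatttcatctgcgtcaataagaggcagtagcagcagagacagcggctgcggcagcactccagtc
The Prph window held TATAAA 1 time, with its first base at position -31 from the start, and the second word 1 time just after it. The Sncg window held TATAAA 0 times and the second word 1 time. Of 32851 RefSeq promoters of this length, 13.6% held TATAAA and 35.7% held GGGCGG on either strand, and no marked words overlapped. Of the 6 markers, 2 matched an entry of the promoter table.

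All 6 markers given for these cells were present in every mechanoreceptor library, and all 6 were higher there than in any midline library. Of all 15314 genes tested, 27.5% were higher in every mechanoreceptor library than in any midline library and 27.3% were lower, so 54.8% did not overlap. Levels are CPM, the counts of a gene relative to the total of its library, scaled by the trimmed mean of M-values (TMM). Ret had 987, 1034 and 786 CPM in mechanoreceptor libraries 2, 8 and 9, against 13.5, 41.7 and 20.7 CPM in midline libraries 2, 3 and 5. Its co-receptor gene Gfra2 had 595, 668 and 559 CPM in the mechanoreceptor libraries and 30.7, 114 and 26.1 CPM in the midline libraries. Both genes were lowest in mechanoreceptor library 9, and the groups did not overlap. Maf, a transcription factor gene of these neurons, was nearly level at 127, 130 and 128 CPM, against 49.96, 73.9 and 31.7 CPM in the midline libraries. Sncg had 1250, 1527 and 1605 CPM in the mechanoreceptor libraries, against 16.7, 7.99 and 16.5 CPM in the midline libraries. By mean CPM, Ret ranked 101, Gfra2 195 and Maf 2055 among 22869 genes. Per kilobase, Ret averaged 208 ± 29.3 and Gfra2 175 ± 15.9 CPM (SD, n = 3), which differ by about as much as the libraries do. Ret was the higher of the pair in each library. With counts summed over transcript rows, Ret averaged 1188 CPM in place of 936 CPM and Gfra2 432 CPM in place of 607 CPM. The closeness per kilobase thus holds for the kept rows only.

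In edgeR's quasi-likelihood test with Benjamini-Hochberg adjustment over 15314 genes, 37.8% of all genes were called at an adjusted p under 0.05. Of all genes, 18.8% were called higher and 18.9% lower in mechanoreceptors. Without mechanoreceptor library 8, 3755 genes were called in place of 5788. Under upper-quartile scaling 36.9% of the called genes were higher, against 49.9% under TMM, and the median log2 fold change of all genes was -0.26, against -0.05. The log2 fold change was 5.21 ± 0.45 (SE) for Ret, with an adjusted p of 0.000361. It was 3.41 ± 0.57 for Gfra2, with an edgeR adjusted p of 0.00334, and 1.30 ± 0.30 for Maf, with 0.0112. Sncg reached 6.72 ± 0.38. A higher level in a bulk sample can reflect more cells of a type or more RNA per cell, which cannot be told apart.

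The neurofilament genes Nefm and Nefl and the peripherin gene Prph were among the most abundant genes. They differed between the mechanoreceptor libraries more than most genes at their level. Nefm, the medium neurofilament subunit, had 5856, 6085 and 9613 CPM in mechanoreceptor libraries 2, 8 and 9, against 112, 132 and 131 CPM in the midline libraries, and ranked 4. Nefl, the light subunit, had 3386, 4089 and 5901 CPM, against 95.8, 171 and 64.6 CPM in the midline libraries, and ranked 7. Prph had 2113, 2846 and 3887 CPM, against 37.9, 5.99 and 16.0 CPM in the midline libraries, and ranked 17. All 3 genes were lowest in library 2 and highest in library 9. Library 9 exceeded library 2 by 0.71, 0.80 and 0.88 on the log2 scale for Nefm, Nefl and Prph. Nefh, the heavy subunit, had 220, 231 and 283 CPM in mechanoreceptors and 3.18, 4.22 and 1.57 CPM in the midline libraries. Per kilobase, Nefm averaged 2155 ± 632, Prph 1583 ± 478, Nefl 1319 ± 384 and Nefh 61.2 ± 8.47 CPM (SD, n = 3). The order of Nefm, Prph and Nefl was the same in each library although their ranges overlapped. With counts summed over all transcript rows, Prph averaged 6293 CPM in place of 2949 CPM and Nefm 5111 CPM in place of 7185 CPM. Their order by CPM turned. Library totals grew in that sum, from 9879246 to 13801474 counts in mechanoreceptor library 2, which lowers the CPM of a gene that gains no counts. Sncg fell likewise, from 1461 to 1039 CPM, so the fall of Nefm need not be a change in its counts. Reads in shared exons can count in several rows of such a sum, so it does not settle which gene was higher.

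Of 11 intermediate filament genes tested, 4 were higher and 3 lower in mechanoreceptors, against 18.8% and 18.9% of all genes. The higher ones were these 4 neuronal filament genes, and Prph had the largest log2 fold change of them, 7.19 ± 0.73. Vim, the vimentin gene of glia, mesenchyme and immature cells, had 346, 375 and 483 CPM in mechanoreceptors and 1135, 1054 and 2028 CPM in the midline libraries. Nes, the nestin gene of neural progenitors, had 22.9, 14.9 and 12.9 CPM in mechanoreceptors and 449, 1195 and 1040 CPM in the midline libraries. Gfap, the filament gene of astrocytes, was detected only in mechanoreceptor library 9, at 0.510 CPM, and in the midline libraries at 1.59, 1.33 and 2.20 CPM.

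**Figure D1:**
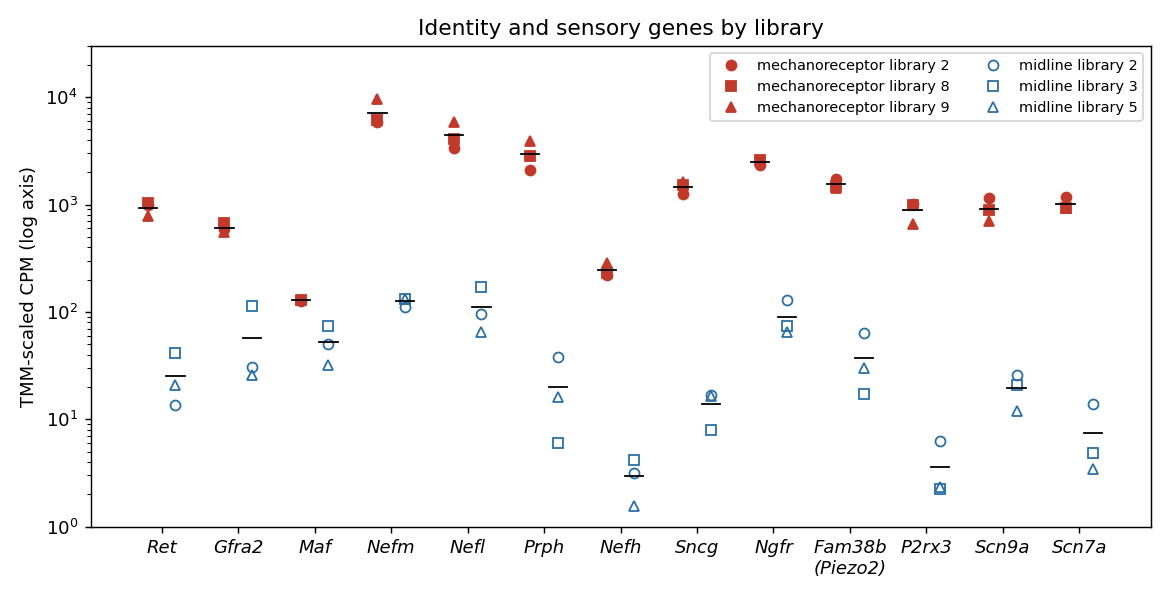
TMM-scaled CPM (log axis) of 13 genes in each library, with filled red symbols for mechanoreceptor libraries 2, 8 and 9, open blue symbols for midline libraries 2, 3 and 5, and a bar at each mean. All 13 genes, which were chosen for display, lie higher in mechanoreceptors with no overlap, as 27.5% of all genes tested do, and Nefm, Nefl and Prph are highest in mechanoreceptor library 9.

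A noncoding RNA and genes of the growing axon led the mechanoreceptor libraries. Map1b, listed as Mtap1b, encodes a microtubule-associated protein of growing axons. It had 18599, 15348 and 15307 CPM in mechanoreceptor libraries 2, 8 and 9, against 2741, 7135 and 6647 CPM in the midline libraries. Its log2 fold change was 1.57 ± 0.43 with an edgeR adjusted p of 0.0219, and without mechanoreceptor library 2, 8 or 9 the adjusted p was 0.0721, 0.0589 or 0.0586. Malat1, a nuclear noncoding RNA, had 19719, 16144 and 13500 CPM in mechanoreceptors and 14355, 10967 and 15570 CPM in the midline libraries, and the groups overlapped. Tuba1a, an alpha-tubulin gene of young neurons, had 6483, 8158 and 8420 CPM in mechanoreceptors, against 1096, 3017 and 2376 CPM in the midline libraries. The other genes among the 15 highest by mean CPM were Calm2, Tmsb4x, Hsp90ab1, Ywhaz, Snhg11, Stmn2, Rtn1, Sptbn1 (listed as Spnb2), Atp5b and Meg3, beside Nefm and Nefl. Their means ran down to 3235 ± 188 CPM for Meg3, a maternally expressed noncoding RNA.

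Division by transcript length changed this order. Tmsb4x, which encodes the actin-binding peptide thymosin beta 4, came first at 5999 CPM per kilobase, followed by the calmodulin gene Calm2 at 4967 and Tuba1a at 4264. Rpl41, a ribosomal protein gene with a short transcript, ranked 4, and Nefm ranked 7. Snurf ranked 5 with a length of 216 bases, that of the annotated transcript matched to its row, which need not be the length counted. It lies within the Snrpn locus, where the counting could assign reads to either gene. Sncg ranked 11 and Prph 13. Stmn2 and the neuronal ubiquitin hydrolase gene Uchl1 ranked 10 and 14, and Map1b ranked 17 with a matched length of 11808 bases. Of the 15 highest genes by CPM, 8 were among the 15 highest per kilobase, and of the 100 highest, 53 were shared.

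A list of 44 genes of growing axons and their microtubules summed to 72461, 75768 and 72976 CPM in mechanoreceptor libraries 2, 8 and 9. In the midline libraries the same sum was 12723, 31490 and 21787 CPM. Of these genes, 41 stood at 100 CPM or more in all 3 mechanoreceptor libraries. In the edgeR test 36 of the 44 were higher, against 18.8% of all genes, 0 were lower and 8 were not called. Their median log2 fold change was 1.80. Upper-quartile scaling made 1 of them lower. Gap43, which encodes a growth cone protein, had 1837, 2067 and 2478 CPM in mechanoreceptors, against 123, 331 and 121 CPM in the midline libraries. Stmn2, a stathmin gene of growing neurites, had 3251, 3802 and 4151 CPM, against 254, 890 and 285 CPM in the midline libraries. At the low end of the list, Sncb, the beta-synuclein gene, had only 4.03, 7.35 and 5.23 CPM in mechanoreceptors and 0.636, 6.66 and 2.04 CPM in the midline libraries, in contrast to its paralog Sncg.

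**Figure D2:**
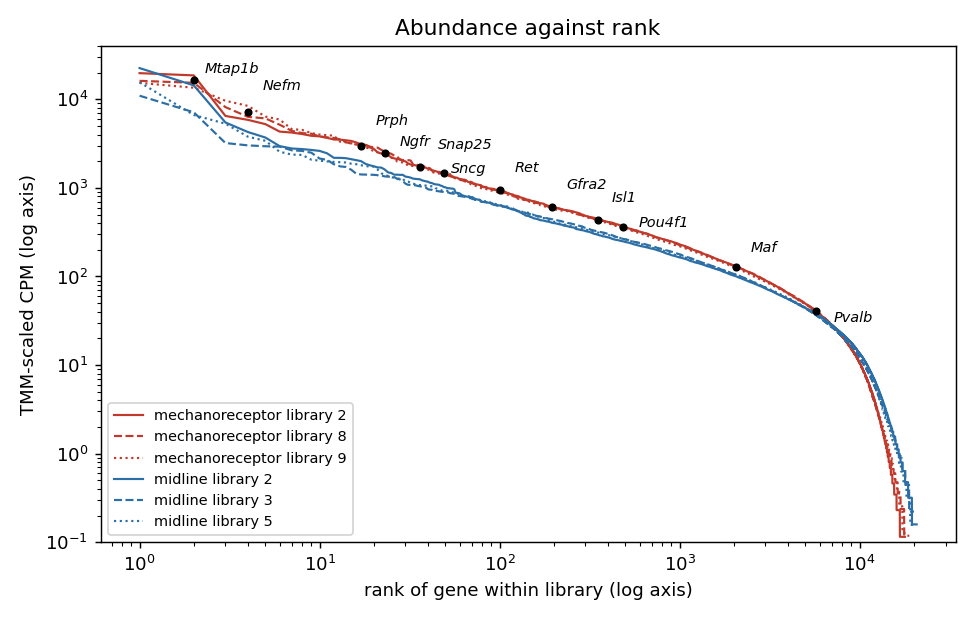
TMM-scaled CPM of every gene against its rank within a library (both axes log), with red lines for mechanoreceptor libraries and blue lines for midline libraries, and black points at the mean level and rank of 12 genes in mechanoreceptors. The markers span the curve from Nefm at rank 4 to Maf at rank 2055.

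In all 3 mechanoreceptor libraries 13330 genes reached 1 CPM, 9459 reached 10 CPM, 2329 reached 100 CPM and 65 reached 1000 CPM. In all 3 midline libraries the numbers were 14815, 9593, 1485 and 19. A count of 0 in every mechanoreceptor library was found for 2273 genes, and 3 counts correspond to 0.304 to 0.346 CPM by library total in these libraries. The 100 most abundant genes of the mechanoreceptors took 19.2%, 19.2% and 19.5% of the counts of libraries 2, 8 and 9, and the same genes took 8.10%, 10.5% and 9.31% of the counts in the midline libraries. The 1000 most abundant took 50.1%, 49.8% and 49.8% of the mechanoreceptor counts. The genes were chosen by their mechanoreceptor level, so the gap to the midline is a description.

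By gene class, tubulins took 1.44%, 1.72% and 1.81% of the counts in mechanoreceptors and 0.447%, 0.769% and 0.609% in the midline libraries. Nuclear genes of oxidative phosphorylation took 1.31%, 1.39% and 1.63% in mechanoreceptors and 0.973%, 0.968% and 0.945% in the midline libraries. Of 76 such genes tested, 48 were higher and 2 lower, against 18.8% and 18.9% of all genes. Their median log2 fold change was 0.82. Atp5b and Atp5a1, which encode the beta and alpha subunits of the ATP synthase, were the highest of that class, and Atp5b had 3672, 3161 and 3996 CPM in mechanoreceptors. Proteasome subunits had 26 of 37 genes higher and vacuolar ATPase subunits 15 of 23, with 0 lower in either class. Cytosolic ribosomal protein genes took a smaller share in mechanoreceptors, 1.30%, 1.50% and 1.65%, against 2.05%, 2.45% and 1.92% in the midline libraries. Of 83 tested, 2 were called higher and 3 lower, with a median log2 fold change of -0.17. The class shares are of library totals without TMM scaling, unlike the fold changes. Hox genes, which mark position along the body axis, took 0.0318%, 0.0349% and 0.0284% in mechanoreceptors, against 0.0530%, 0.129% and 0.173% in the midline libraries. Hoxb7 and Hoxd1 were the highest Hox genes, with Hoxb7 at 32.7, 41.7 and 38.8 CPM in mechanoreceptors. At the counts behind these shares the 95% Wilson intervals were narrow, such as 1.43% to 1.45% for tubulins in mechanoreceptor library 2, and they cover counting error only.

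Of 32 transcription factor genes of sensory neurons, 9 stood at 100 CPM or more in all 3 mechanoreceptor libraries. Zfhx3, a large zinc finger homeobox gene, had 1310, 1170 and 854 CPM in mechanoreceptor libraries 2, 8 and 9, against 251, 127 and 176 CPM in the midline libraries. Onecut2 had 979, 791 and 591 CPM in mechanoreceptors and 15.3, 21.5 and 12.3 CPM in the midline libraries. Isl1, the LIM homeobox gene needed in sensory neurons, had 446, 521 and 343 CPM, against 10.8, 2.00 and 7.70 CPM in the midline libraries. These 3 genes were lowest in library 9. Pou4f1, which encodes the sensory factor Brn3a, ran the other way at 339, 358 and 385 CPM in mechanoreceptors, against 25.9, 73.0 and 22.8 CPM in the midline libraries. Sox11 had 806, 773 and 522 CPM in mechanoreceptors and 228, 731 and 350 CPM in the midline libraries, and was not called. Per kilobase the order differed, with Isl1 at 174, Sox11 at 84.3, Pou4f1 at 81.2, Zfhx3 at 67.6 and Onecut2 at 48.5 CPM. The proneural genes Neurog1 and Neurog2, which start sensory neurogenesis, stood at 3 counts or fewer in every mechanoreceptor library, and Neurog2 at 0. Of 29 such factors tested, 14 were higher and 5 lower, the second a share near that of all genes, and the median log2 fold change was 1.07. The 5 became 3 without mechanoreceptor library 8 or without midline library 5.

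A list of 22 genes linked to rapidly adapting mechanoreceptors summed to 3569, 3624 and 3443 CPM in mechanoreceptors and to 726, 1303 and 1165 CPM in the midline libraries. After Ret and Gfra2, the highest were Pcp4, which encodes a calmodulin-binding peptide, at 286, 313 and 392.1 CPM and Etv1, an ETS factor gene also known in proprioceptors, at 363, 263 and 313 CPM. Of 20 tested, 13 were higher and 3 lower, the second a share near the 18.9% of all genes. At the other end, Mafa, the paralog of Maf, had 1, 2 and 0 counts in the mechanoreceptor libraries and 0 in the midline libraries, and Colq, which anchors acetylcholinesterase, had 1, 5 and 0 counts in mechanoreceptors. Ntrk2, the receptor gene for BDNF, had 96.9, 115 and 79.2 CPM in mechanoreceptors and 222, 330 and 526 CPM in the midline libraries. Its log2 fold change was -1.90 ± 0.33 on the kept row and -0.82 with counts summed over all transcript rows, where the call was lost.

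Receptors for survival factors were led by Ngfr, the low-affinity neurotrophin receptor gene, at 2334, 2575 and 2555 CPM in mechanoreceptors, against 130, 73.9 and 64.4 CPM in the midline libraries. It averaged 722 CPM per kilobase and ranked 23 by CPM, with a log2 fold change of 4.79 ± 0.36. Lifr, a receptor gene for the cytokine LIF, had 564, 445 and 365 CPM in mechanoreceptors and 151, 94.7 and 113 CPM in the midline libraries. The lowest of these receptors, Osmr and Erbb4, averaged 1.04 and 2.14 CPM in mechanoreceptors. Of 33 tested, 9 were higher and 12 lower, against 18.8% and 18.9% of all genes. Their median log2 fold change was -0.53. Among the ligands, the highest were Fgf13, an intracellular FGF homolog, at 651, 568 and 600 CPM and Ptn, the pleiotrophin gene, at 449, 460 and 476 CPM. Nrtn, whose product neurturin is the ligand known for Gfra2, and Lif had 0 counts in every mechanoreceptor library.

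Of 29 mechanosensory and TRP channel genes, 2 stood at 100 CPM or more in all 3 mechanoreceptor libraries, Piezo2 and P2rx3. Piezo2, listed as Fam38b, encodes the mechanically gated channel of touch neurons. It had 1743, 1478 and 1414 CPM in mechanoreceptor libraries 2, 8 and 9, against 63.2, 17.1 and 30.2 CPM in the midline libraries, and ranked 43. Its log2 fold change was 5.38 ± 0.51, with an edgeR adjusted p of 0.000463. P2rx3, an ATP-gated channel gene best known in nociceptors, had 1021, 989 and 656 CPM in mechanoreceptors, against 6.21, 2.22 and 2.36 CPM in the midline libraries. Per kilobase P2rx3 averaged 490 CPM and Piezo2 144 CPM. Asic3 and Asic2, listed as Accn3 and Accn1 and encoding acid-sensing channels, followed at 82.2 ± 6.10 and 73.2 ± 15.6 CPM in mechanoreceptors (SD, n = 3). Stoml3, a stomatin-like gene of touch, and P2rx5 had 3 counts or fewer in every mechanoreceptor library. Of 28 channels in this list that were tested, 9 were higher and 6 lower, the second a share near that of all genes. The median log2 fold change was 0.02, and 3 were lower at a minimum count of 30.

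Sodium channel genes summed to 3537, 3035 and 2608 CPM in mechanoreceptors and to 454, 673 and 365 CPM in the midline libraries. Scn7a, whose channel senses sodium level, had 1164, 933 and 923 CPM in mechanoreceptors, against 14.0, 4.88 and 3.46 CPM in the midline libraries. Scn9a, which encodes Nav1.7, had 1162, 886 and 696 CPM, against 25.9, 20.9 and 11.9 CPM in the midline libraries. The beta subunit gene Scn3b had 405, 419 and 342 CPM and Scn3a, an alpha subunit gene of embryonic neurons, 206, 177 and 140 CPM in mechanoreceptors. Scn4b and Scn4a were the lowest, at means of 0.632 and 1.52 CPM. Of 14 tested, 8 were higher and 0 lower, against 18.8% and 18.9% of all genes. Their median log2 fold change was 1.51.

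Genes of glutamate release and the presynaptic terminal were led by Snap25, a vesicle fusion gene, at 1642, 1761 and 1775 CPM in mechanoreceptors, against 105, 491 and 162 CPM in the midline libraries. Pclo, Syt11 and Rab3c, all of the presynaptic terminal or its vesicles, followed at means of 751, 597 and 510 CPM. Slc17a6, which encodes a vesicular glutamate transporter, had 293, 322 and 198 CPM in mechanoreceptors and 38.3, 100 and 14.8 CPM in the midline libraries. Its log2 fold change was 2.41 ± 0.60 with an edgeR adjusted p of 0.0165, which was 0.0509 without mechanoreceptor library 2 and 0.0517 without library 8. Of 44 genes tested, 27 were higher and 4 lower, against 18.8% and 18.9% of all genes. Gria1, an AMPA receptor subunit gene, was the lowest of the list at 1.61, 3.08 and 1.40 CPM in mechanoreceptors, against 162, 223 and 474 CPM in the midline libraries.

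Secretory and peptide genes were led by Cpe, a peptide-processing enzyme gene, at 977, 776 and 1408 CPM in mechanoreceptors, and by Scg3 and Pcsk2 at means of 294 and 182 CPM. Of 22 tested, 14 were higher and 1 lower, against 18.8% and 18.9% of all genes, with 2 or 3 lower under other settings. The peptide gene Cck varied widely, at 128, 222 and 63.6 CPM in mechanoreceptors, against 7.16, 17.8 and 4.40 CPM in the midline libraries. Vip and Pdyn, both of neuropeptide precursors, were the lowest, at means of 0.434 and 0.422 CPM.

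Of 42 guidance receptor and 41 adhesion genes, 10 and 18 stood at 100 CPM or more in all 3 mechanoreceptor libraries. Neo1, a receptor gene for netrins and repulsive guidance molecules, had 1116, 1217 and 866 CPM in mechanoreceptors and 585, 620 and 1260 CPM in the midline libraries, which overlapped. Plxna4, a semaphorin receptor gene, had 1154, 1175 and 839 CPM, against 123, 336 and 202 CPM in the midline libraries. Nrp1, its partner in semaphorin reception, had 635, 551 and 397 CPM in mechanoreceptors. Robo3, known from commissural neurons of the spinal cord, had 2, 0 and 0 counts in mechanoreceptors. Of 42 guidance receptors tested, 8 were higher, a share near that of all genes, and 17 lower, with a median log2 fold change of -0.66. L1cam and Alcam, cell adhesion genes of axons, had 1089, 1184 and 868 CPM and 1064, 880 and 893 CPM in mechanoreceptors, and their log2 fold changes were 2.90 ± 0.42 and 2.97 ± 0.25. Of 41 adhesion genes tested, 11 were higher and 8 lower, the second a share near that of all genes. Without midline library 3, 18 were higher, and without mechanoreceptor library 9, 4 were lower.

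**Figure D3:**
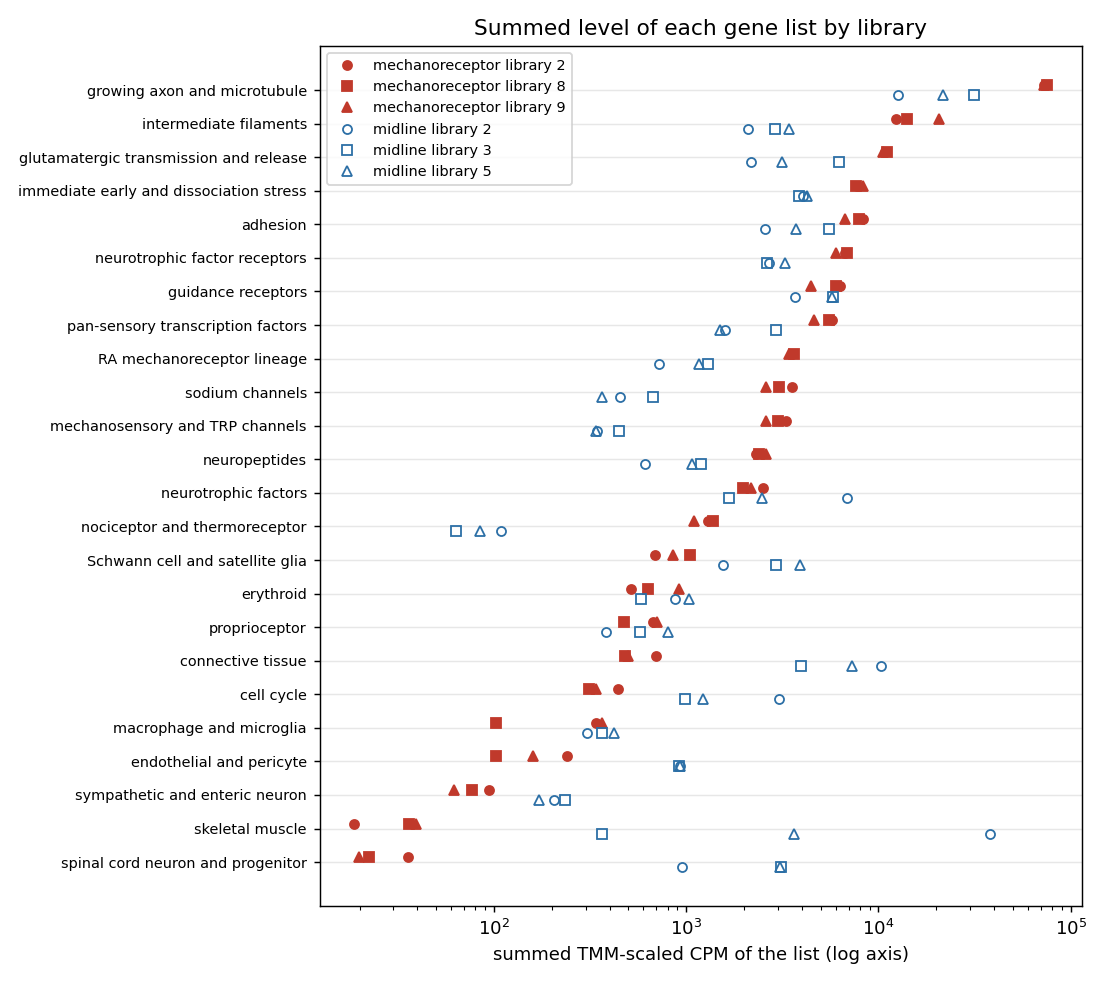
Summed TMM-scaled CPM (log axis) of 24 gene lists, with the mechanoreceptor libraries (filled red) above the midline libraries (open blue) on each line. Library 8 lies lowest of the mechanoreceptors for macrophage and endothelial genes, and library 9 lies highest for intermediate filaments.

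Markers of other sensory neurons ranged from 0 counts to a level per kilobase above that of Ret. The highest was P2rx3, given above, which averaged 490 ± 111 CPM per kilobase in mechanoreceptors, where Ret averaged 208 ± 29.3 (SD, n = 3). Prdm12, a nociceptor lineage factor gene, had 69.8, 88.3 and 148 CPM in mechanoreceptors. Scn10a, which encodes Nav1.8, had 74.4, 107 and 90.6 CPM, against 7.64, 3.11 and 1.57 CPM in the midline libraries. Mrgprd, a receptor gene of later nociceptors, had 0 counts in every mechanoreceptor library. The nociceptor and thermoreceptor list summed to 1307, 1376 and 1096 CPM in mechanoreceptors, most of it P2rx3, against 109, 63.7 and 84.4 CPM in the midline libraries. Among proprioceptor genes, Pvalb, the parvalbumin gene, had 26.3, 18.9 and 77.8 CPM in mechanoreceptors and was highest in library 9, while Chodl, a lectin gene, had 137, 106 and 158 CPM. Ntrk3, the receptor gene for neurotrophin-3, had 34.1, 26.2 and 44.0 CPM in mechanoreceptors and 27.4, 48.6 and 25.6 CPM in the midline libraries. Nxph1, a neurexin ligand gene, had 0, 1 and 3 counts in mechanoreceptors.

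Genes known from cells other than neurons were detected in each mechanoreceptor library, at levels that were unequal between them. Schwann and satellite glia genes summed to 692, 1051 and 859 CPM in mechanoreceptor libraries 2, 8 and 9, and to 1548, 2934 and 3931 CPM in the midline libraries. Fabp7, a glial and radial glial gene, gave 143, 316 and 229 CPM of this in mechanoreceptors and 791, 2613 and 3397 CPM in the midline libraries. Sox10, a defining gene of peripheral glia, had 13.4, 25.97 and 16.4 CPM in mechanoreceptors. S100b, a glial gene of this list, is also expressed by sensory neurons. It had 136, 166 and 200 CPM in mechanoreceptors, against 7.80, 2.00 and 3.14 CPM in the midline libraries. The sum of the list is thus not a measure of glial RNA alone. Of 21 glial genes tested, 5 were higher and 5 lower, each near the share of all genes (18.8% and 18.9%). Leaving out mechanoreceptor library 8 gave 3 and 3. The 5 higher also became 3 if mechanoreceptor library 2, or midline library 3 or 5, was left out.

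Macrophage genes summed to 342, 103 and 365 CPM in mechanoreceptors and to 306, 367 and 423 CPM in the midline libraries, so that library 8 stood apart. C1qb and Csf1r, both defining genes of macrophages, had 53.7, 16.3 and 50.4 CPM and 39.5, 9.37 and 54.4 CPM in the mechanoreceptor libraries. Endothelial and pericyte genes summed to 240, 102 and 159 CPM in mechanoreceptors and to 934, 918 and 933 CPM in the midline libraries, with Cdh5, Pecam1, Egfl7 and Kdr the highest. Connective tissue genes summed to 696, 483 and 499 CPM in mechanoreceptors, against 10317, 3970 and 7303 CPM in the midline libraries. Erythroid genes summed to 514, 637 and 919 CPM in mechanoreceptors and to 880, 586 and 1030 CPM in the midline libraries. The embryonic globin gene Hbb-y gave most of it in mechanoreceptors, at 350, 440 and 595 CPM, against 88.5, 94.96 and 278 CPM in the midline libraries. Of 10 erythroid genes tested, 7 were lower in mechanoreceptors and 1 was higher, against 18.9% and 18.8% of all genes. Their median log2 fold change was -2.10. The higher one was Hbb-y, a call lost without any 1 mechanoreceptor library or without midline library 3. Hba-a1 and Hba-a2 shared the same counts, as did Hbb-b1 and Hbb-b2. The part of these other cells in the neuronal levels was not tested.

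Cell cycle genes were low in mechanoreceptors, with a sum of 440, 311 and 341 CPM, against 3052, 992 and 1227 CPM in the midline libraries. In the edgeR test 23 of 24 were lower, against 18.9% of all genes. Mki67, the proliferation gene, had 97.6, 61.0 and 65.7 CPM in mechanoreceptors and 846, 233 and 308 CPM in the midline libraries. Genes of spinal cord neurons and progenitors summed to 35.8, 22.4 and 19.9 CPM in mechanoreceptors, most of it Nes, and 15 of 25 had at most 3 counts in every mechanoreceptor library. Skeletal muscle genes summed to 18.8, 36.2 and 39.4 CPM in mechanoreceptors. In the midline they reached 37981 CPM in library 2 and 3630 CPM in library 5, against 367 CPM in library 3, so midline library 2 stood apart. Leaving it out gave 5323 called genes in place of 5788. Sympathetic and enteric neuron genes, whose cells also express Ret, summed to 94.5, 76.5 and 62.0 CPM in mechanoreceptors, and Th, the tyrosine hydroxylase gene, had 5.88, 4.27 and 4.21 CPM. Genes of immediate early response and dissociation stress summed to 7739, 7623 and 8344 CPM in mechanoreceptors and to 4066, 3863 and 4261 CPM in the midline libraries. Most of it was the chaperone gene Hsp90ab1, at 3872, 4147 and 4509 CPM in mechanoreceptors, and Jun had 136, 127 and 112 CPM. Of 35 tested, 14 were higher and 1 lower, against 18.8% and 18.9% of all genes. Without mechanoreceptor library 9, 7 were higher, and 8 were without mechanoreceptor library 2 and 8 without midline library 5.

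The mechanoreceptor libraries resembled each other closely in most genes. Among 4919 genes with a mean of 50 CPM or more, the median coefficient of variation (CV, the SD over the mean of 3 libraries) was 0.121. It was under 0.2 in 83.9% of these genes and 0.3 or more in 169. The common biological coefficient of variation of edgeR was 0.221 within the mechanoreceptors and 0.399 within the midline. Log2 CPM correlated at a Pearson r of 0.971 between libraries 2 and 8, 0.946 between 2 and 9 and 0.9499 between 8 and 9, across these 4919 genes, which are not independent replicates. A gap of 2-fold or more between the highest and lowest library was seen in 85 genes (1.73%). The median CV was 0.406 for genes at 1 to 10 CPM and 0.113 for genes at 1000 CPM or more, so levels of rare transcripts were less precise.

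Genes with the largest spread included sex-linked and non-neuronal genes. Xist, the noncoding RNA of the inactive X chromosome in females, had 269, 551 and 1.78 CPM in mechanoreceptor libraries 2, 8 and 9. The Y-linked gene Eif2s3y had 75.2, 35.3 and 101 CPM and Kdm5d 44.6, 13.4 and 43.7 CPM in the same libraries. Xist was thus lowest in library 9 and highest in library 8, where the Y-linked genes were lowest. Cwc22, a splicing factor gene, had 264, 105 and 22.1 CPM in mechanoreceptors. The matrix gene Fn1 had 102, 10.9 and 58.6 CPM and the immediate early gene Zfp36 71.3, 18.02 and 116 CPM, both lowest in library 8 as the macrophage list was. The remaining genes of the 10 largest CVs were Itpk1, Cck, Tmem181b-ps, H2-D1, Kctd12 and Igf2, with CVs of 0.503 to 0.603. The imprinted growth factor gene Igf2 had 410, 150 and 233 CPM in mechanoreceptors.

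At the other extreme, Rhoa, a small GTPase gene of the cytoskeleton, had 200.6, 201.4 and 201.0 CPM in mechanoreceptors. Rufy3, a gene linked to axon growth, had 983, 993 and 986 CPM. The others of the 10 smallest CVs were Clptm1l, Prkci, Ap1b1, Csnk1g3, G6pdx, E2f6, Hmgb1 and Rtn2, with CVs from 0.00181 to 0.00576. Maf was nearly as even, with a CV of 0.00928. Such CVs, at or near the lowest of 4919 and each from 3 libraries, do not mark these genes as steadier than others. The markers Ret, Sncg and Gfra2 had CVs of 0.141, 0.128 and 0.0909, near or below the median. Nefm and Prph had CVs of 0.293 and 0.302, above the 95th percentile of 0.274.

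**Figure D4:**
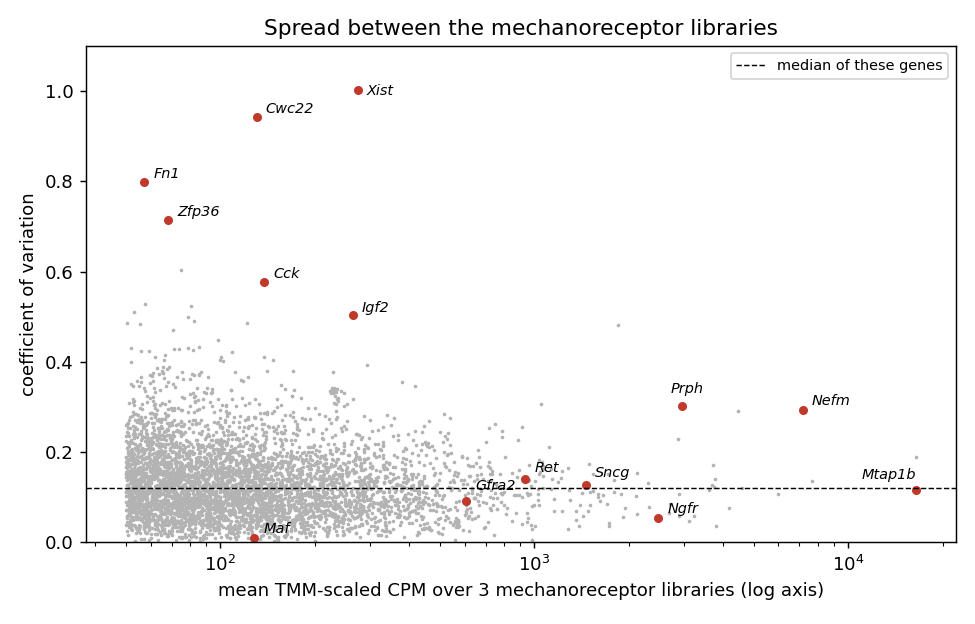
Coefficient of variation over the 3 mechanoreceptor libraries against mean TMM-scaled CPM (log axis) for genes at 50 CPM or more, with 14 genes named and a dashed line at the median of 0.121. Xist, Cwc22, Fn1 and Zfp36 lie highest, and Nefm and Prph lie above the other abundant markers.

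Transcript length moved with the differences between libraries. For 264 genes under 1000 bases, the median log2 difference of library 9 minus library 2 was 0.26, and for 986 genes of 6000 bases or more it was -0.26. Across 4852 genes with a length, Spearman's rho between length and this difference was -0.479, and it was -0.412 for library 8 minus library 2. Sodium channel, guidance receptor and adhesion genes, whose median lengths were 7338, 7315 and 5647 bases, had median differences of -0.33, -0.51 and -0.32. The sums of these 3 lists were highest in library 2 and lowest in library 9, and the part of length in this was not tested. Transcripts of 3000 to 4000 bases, the range of Nefm and Nefl, had a median difference of -0.02, against 0.71 for Nefm and 0.80 for Nefl. Transcripts of 1000 to 2000 bases, the range of Prph at 1863 bases, had a median difference of 0.18, against 0.88 for Prph. The part of length in the differences of Nefm, Nefl and Prph was not tested either.

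**Figure D5:**
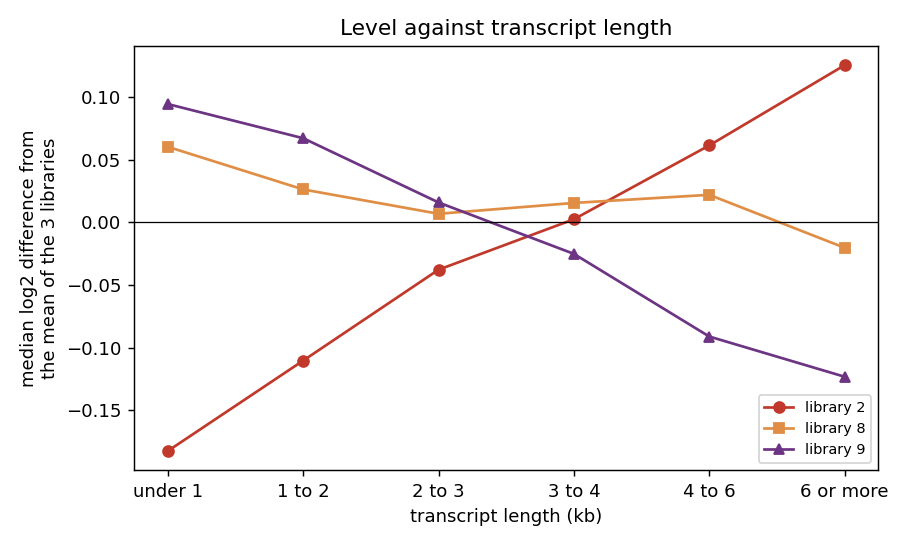
Median log2 difference of each mechanoreceptor library from the mean of the 3 libraries, by transcript length in kilobases, over genes at 50 CPM or more. Library 9 goes from above the mean for the shortest transcripts to below it for the longest, and library 2 the opposite way.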

How the data were processed

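The authors deposited whole-number read counts per RefSeq transcript for 6 libraries of mouse RNA, 3 of mechanoreceptors and 3 of midline cells. The submitters' processing notes name the build mm9 and edgeR; the aligner, the counting tool and its use of strand are not given in the sources used here. Reads in shared exons can stand in several of the 28644 transcript rows, so 1 row was kept for each of 22869 genes, by the highest total. Kept rows held 8670720 to 9879246 counts per mechanoreceptor library and 3963049 to 5648620 per midline library. Of 14068 genes with 100 counts or more, 12 shared all counts with another symbol. Without strand, overlapping and antisense genes cannot be told apart.

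Counts were scaled to CPM by TMM in edgeR 4.0.16 (R 4.3.3). Groups were compared with the quasi-likelihood test after filterByExpr (minimum count 10), with Benjamini-Hochberg adjustment and a threshold of 0.05. Log2 ratios of single libraries used a pseudocount of 0.5 CPM. Lengths came from GENCODE M21 transcripts matched by RefSeq accession (97.2% of genes); the deposited symbols were matched to current ones by accession. Alternatives were DESeq2 1.42.0, 2 other scalings, other filters, summed rows and leaving out each library.

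Genes were named by rule: the 6 markers, the 15 highest by CPM and by CPM per kilobase, up to 4 highest and 2 lowest members of a list, the 2 highest of a class, and the 10 largest and smallest CVs. Nefh, Ntrk2, Slc17a6, Pou4f1, Sox10, Gap43 and Jun were named outside it after their values were seen. The members and lists were chosen with earlier results of these data known.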

Additional observations from a re-analysis of the deposited data

How the results depend on the processing

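Without 1 library, 3755 to 6182 genes were called, 1893 to 3100 higher and 1862 to 3082 lower in mechanoreceptors, against 5788, 2886 and 2902 with all 6. The fewest calls came without mechanoreceptor library 8, and leaving out mechanoreceptor library 2 gave 1922 lower. The DESeq2 Wald test called 6783. Numbers of genes over 1, 10, 100 and 1000 CPM stayed within 1.5 times under each alternative run. The 100 most abundant genes took 22.1% of the counts when counts were summed over transcript rows, against 19.3%. The common biological coefficient of variation of the mechanoreceptors was 0.197 at a minimum count of 30 and 0.197 to 0.236 without 1 library, against 0.221. Of 37 genes whose fold changes were recomputed under 12 alternatives, 33 kept their direction and call in each run; the exceptions, Map1b, Slc17a6, Ntrk2 and Hbb-y, are given with their values or settings above, and none changed sign. The cause of these shifts was not tested, and fewer samples were fitted where a library was left out. No paired analysis was possible because the groups share only replicate number 2. Low counts limit genes under about 1 CPM.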
